A study of Mus musculus with 2 samples.

Results

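The mir-124 and mir-9 families of microRNA (miRNA) genes were examined in midbrain of Mus musculus embryos of strain B6NCrl at embryonic day 16.5. The members were chosen by name, as the genes annotated to these families, and not by a cut on any measured value. Earlier results of these data were known when they were chosen. They are 6 of the 1973 miRNA genes in each count table: Mir124a-1, Mir124a-2, Mir124a-3, Mir9-2, Mir9-3 and Gm25641. Gm25641 is annotated on the strand opposite Mir9-1, so reads counted opposite Gm25641 were taken as the reads of Mir9-1. The series holds 1 group of 2 libraries, each made from pooled male and female embryos with no stated treatment or genetic change. Labels call them biological replicates but give both the same donor entry, so the spread between them may be technical. The pool of replicate 2 came from 37 embryos, and no number is stated for the pool of replicate 1. The sense-strand reads at all miRNA genes summed to 6151299 for replicate 1 and 5312642 for replicate 2. Levels are given relative to these sums, as CPM, where a single read is worth 0.163 and 0.188 CPM. Intervals are 95% exact intervals that cover counting error only, since the reads carried no stated molecular identifiers.

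MiRNAs are short RNAs cut from hairpin precursors, and each hairpin can release an arm from its 5′ side (5p) and one from its 3′ side (3p). Bases 2 to 8 of a mature miRNA, the seed, pair with target mRNAs, which are then repressed. The mir-124 family is known as a neuronal miRNA family that represses non-neuronal transcripts as neurons differentiate, and mir-9 is known in neural progenitors and young neurons, where it acts on regulators of progenitor maintenance. Several genome copies of each family encode the same mature miRNA. The tables have a common row for reads mapping to several places. From this layout it is taken, as no source states the rule, that a read matching several copies equally well stands in that row and is counted at no gene.

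The mature sequences of mir-9 are shown because they are the molecules that 3 separate genes, Mir9-1, Mir9-2 and Mir9-3, encode in common. They come from RefSeq on GRCm38.p6 (the mm10 assembly), with the seed in capitals. The miR-9b arms are annotated on the opposite strand, at Gm25641.
miR-9-5p: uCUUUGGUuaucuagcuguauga
miR-9-3p: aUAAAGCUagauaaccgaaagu
miR-9b-5p: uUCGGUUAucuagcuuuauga
miR-9b-3p: aUACAGCUagauaaccaaaga
No seed is shared between these 4 arms. Among the 1738 mature sequences of the RefSeq table, the seeds of miR-9-5p and miR-9-3p were found at the 3 mir-9 genes and at no other gene. The seed of miR-9b-5p was found at Gm25641 and Gm51285, and that of miR-9b-3p at Gm25641, Gm51285 and Gm51268; Gm51285 and Gm51268 were not matched to a row of the tables.

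Both miR-9 arms matched 3 places among 2202 annotated hairpins, namely Mir9-1, Mir9-2 and Mir9-3, and the number was still 3 with 1 mismatch allowed. What separates the copies lies outside the arms. The 5p arm of each copy is printed with 7 bases before it and 6 after it, and capitals mark the bases at which the 3 copies do not all agree.
Mir9-1: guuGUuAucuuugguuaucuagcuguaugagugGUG
Mir9-2: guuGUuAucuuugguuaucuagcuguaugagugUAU
Mir9-3: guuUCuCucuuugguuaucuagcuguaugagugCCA
The 3p arm follows, with the same flanks.
Mir9-1: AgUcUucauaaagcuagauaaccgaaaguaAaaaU
Mir9-2: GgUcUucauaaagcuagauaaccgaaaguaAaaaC
Mir9-3: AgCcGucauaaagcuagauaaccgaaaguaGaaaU

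Mir9-3 is the copy that needs the fewest extra bases to be told apart. A miR-9-5p read with 1 more base at its 5′ end, 24 bases in all, matched Mir9-3 at 1 place. A miR-9-3p read with 2 more bases at its 3′ end, also 24 bases, did so too. Mir9-1 and Mir9-2 share all 7 bases before the 5p arm that the Mir9-2 hairpin holds. They were told apart only with 4 more bases at the 3′ end of the 5p arm, a read of 27 bases. On the 3p arm they needed 6 more bases at the 3′ end or 7 at the 5′ end, reads of 28 and 29 bases. The inserts of these libraries were below 30 nt, per the labels. Of the 22-base windows of each hairpin, 60 of 69 in Mir9-3 matched 1 place, against 44 of 68 in Mir9-1 and 27 of 51 in Mir9-2. At a length of 28 bases these counts were 63 of 63, 50 of 62 and 33 of 45. The search covered annotated hairpins and not the genome.

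**Figure D1:**
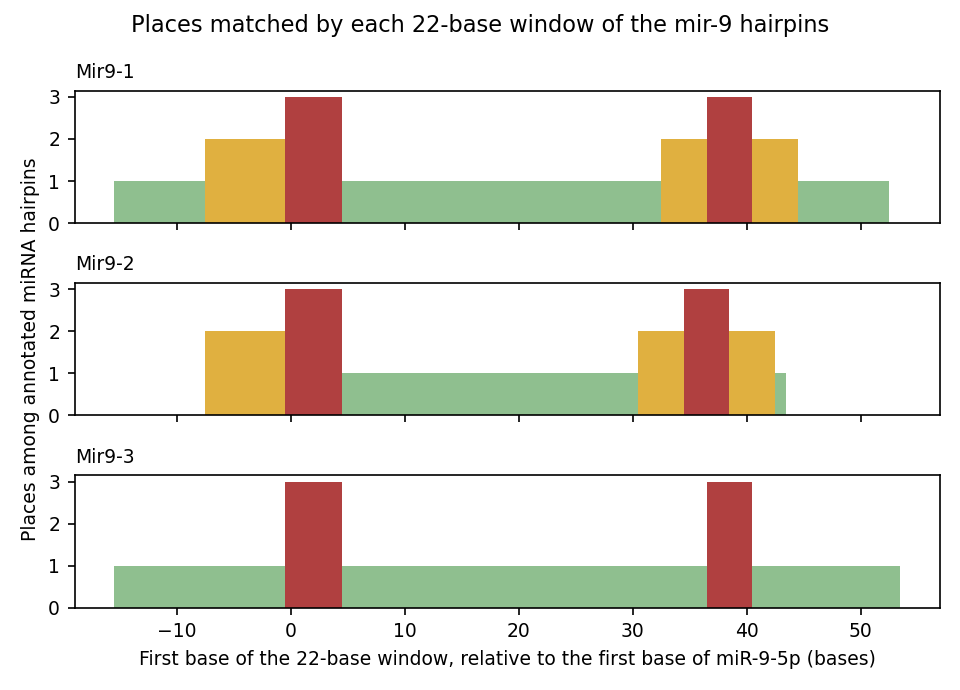
Places among annotated miRNA hairpins (y axis) that match each 22-base window of Mir9-1, Mir9-2 and Mir9-3, by the window's first base relative to the first base of miR-9-5p (x axis, in bases). Green bars mark windows at 1 place, yellow at 2 and red at 3; Mir9-3 has no window at 2 places, whereas Mir9-1 and Mir9-2 have 15 each.

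Mir9-3 held nearly all of the counted mir-9 reads. This gene (ENSMUSG00000093238, chromosome 7, 79505264 to 79505353, plus strand) lies in an intron of the lincRNA gene Mir9-3hg. It had 2233 reads in replicate 1, or 363 CPM (348 to 378), and 2376 in replicate 2, or 447 CPM (429 to 466). Its mean of 405 ± 59.6 CPM (SD, n = 2) ranked 139 of 1974, where the 1973 genes are ranked together with Mir9-1. The intervals of the libraries did not overlap, and replicate 2 was the higher.

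Mir9-1 came next among the mir-9 genes. It lies at chromosome 3, 88215598 to 88215686, on the plus strand, in an intron of the lincRNA gene Gm3764, and Gm25641 (ENSMUSG00000092876, 88215589 to 88215696) covers it on the minus strand. There were 102 reads at Mir9-1 in replicate 1 and 132 in replicate 2. These are 16.6 CPM (13.5 to 20.1) and 24.8 CPM (20.8 to 29.5), with a mean of 20.7 ± 5.84 (SD, n = 2) and rank 284. Both libraries lay far below Mir9-3. On its own strand Gm25641 had 0 reads in each library, which allows up to 0.488 CPM in replicate 1 and 0.565 in replicate 2 at 3 counts, so counted reads of miR-9b were not detected at this depth. Both miR-9b arms also matched 3 places, so reads of these arms could likewise stand in the row for several places.

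Mir9-2 was the lowest of the 3 copies. This gene (ENSMUSG00000065424, chromosome 13, 83738814 to 83738885, plus strand) overlaps an exon of the lincRNA gene C130071C03Rik. It had 13 reads in replicate 1 and 3 in replicate 2, or 2.11 CPM (1.13 to 3.61) and 0.565 CPM (0.116 to 1.65). The mean was 1.34 ± 1.10 CPM (SD, n = 2), an SD nearly as large as the mean.

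The 3 mir-124 genes were counted at a few CPM or less. Mir124a-1 (ENSMUSG00000065597, chromosome 14, 64590657 to 64590741, plus strand) overlaps an exon of the lincRNA gene Mir124a-1hg. It had 33 reads in replicate 1, or 5.36 CPM (3.69 to 7.53), and 25 in replicate 2, or 4.71 CPM (3.05 to 6.95). The libraries overlapped within their intervals.

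Mir124a-2 (ENSMUSG00000093073, chromosome 3, 17795662 to 17795770, plus strand) overlaps an exon of Mir124-2hg. It had 22 reads in each library, or 3.58 CPM (2.24 to 5.41) and 4.14 CPM (2.6 to 6.27). Mir124a-3 (ENSMUSG00000065454, chromosome 2, 180894040 to 180894107, plus strand) overlaps an exon of the lincRNA gene Gm27032. It had 2 and 4 reads, or 0.325 CPM (0.0394 to 1.17) and 0.753 CPM (0.205 to 1.93). Means were 5.04 ± 0.47 CPM for Mir124a-1, 3.86 ± 0.40 for Mir124a-2 and 0.539 ± 0.302 for Mir124a-3 (SD, n = 2), at ranks 340, 362 and 550.

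**Figure D2:**
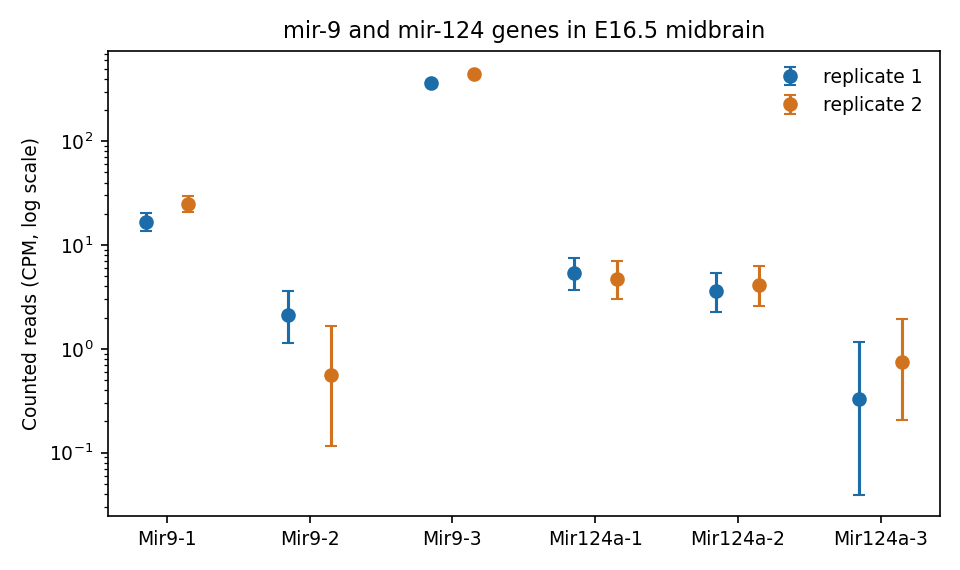
Counted reads of each mir-9 and mir-124 gene in CPM (y axis, log scale) in replicate 1 (blue) and replicate 2 (orange), with 95% exact Poisson intervals of the counts as bars. Mir9-3 stands at 363 and 447 CPM, Mir9-1 at 16.6 and 24.8, and every other gene below 6 CPM in both libraries.

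By mean level the order was Mir9-3, Mir9-1, Mir124a-1, Mir124a-2, Mir9-2 and Mir124a-3. Mir9-3 exceeded Mir9-1 by 21.9-fold in replicate 1 (17.9 to 27.0) and 18.0-fold in replicate 2 (15.1 to 21.6). Mir9-1 exceeded Mir124a-1 by 3.09-fold (2.07 to 4.73) and 5.28-fold (3.42 to 8.45). Mir124a-1 and Mir124a-2 were neighbours whose counting intervals overlapped, at 1.5-fold (0.849 to 2.7) and 1.14-fold (0.615 to 2.11), although their libraries did not overlap. Mir9-2 and Mir124a-3 overlapped between libraries, so their order was not resolved. With reads of either strand, the mean of Mir124a-3 was above that of Mir9-2, at 1.68 ± 1.26 CPM against 1.30 ± 1.07 (SD, n = 2), so the order of these lowest genes also depends on the strand counted. CPM was not divided by the length of the hairpin, since a read spans a short RNA cut from it and not a fragment of its whole length.

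The division of reads between copies was uneven in mir-9 and closer to even between the leading mir-124 copies. Mir9-3 held 95.1% of counted mir-9 reads in replicate 1 (Clopper-Pearson interval 94.2 to 95.9) and 94.6% in replicate 2 (93.7 to 95.5). Mir9-1 held 4.34% (3.56 to 5.25) and 5.26% (4.42 to 6.20). Mir9-2 held 0.554% (0.295 to 0.945) and 0.119% (0.0246 to 0.349). The order of these 3 copies was the same in both libraries. With reads divided by the number of 22-base windows at 1 place, the mean share of Mir9-3 was 92.9%. That division treats reads as spread evenly over the hairpin, whereas the copies differ in the bases needed beyond the arms, 1 for Mir9-3 against 4 for the other copies, and the part of this in the shares was not tested.

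In mir-124, Mir124a-1 held 57.9% of counted reads (44.1 to 70.9) in replicate 1 and 49.0% (34.8 to 63.4) in replicate 2. Mir124a-2 held 38.6% (26.0 to 52.4) and 43.1% (29.3 to 57.8), so these copies could not be told apart. Mir124a-3 held 3.51% (0.428 to 12.1) and 7.84% (2.18 to 18.9), below both other copies in each library.

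**Figure D3:**
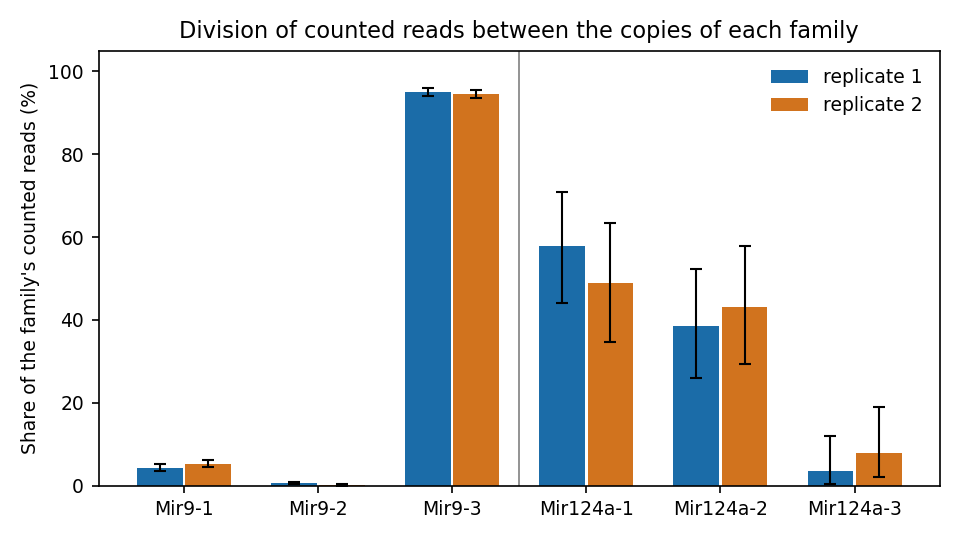
Share of each family's counted reads (y axis, percent) at each copy in replicate 1 (blue) and replicate 2 (orange), with Clopper-Pearson 95% intervals as bars; the grey line separates mir-9 from mir-124. Mir9-3 holds 95.1% and 94.6% of mir-9 reads, while the intervals of Mir124a-1 and Mir124a-2 overlap.

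As read from the layout of the tables, these counts leave out reads that mapped to several places. Such reads numbered 4816290 in replicate 1 and 4391928 in replicate 2, or 35.3% and 36.5% of all reads. Counted mir-124 reads came to 57 and 51 in all, so there were 84496 and 86116 reads at several places for each counted mir-124 read. Counted mir-9 reads came to 2348 and 2511, with 2051 and 1749 reads at several places for each. The share of these reads that belongs to either family is not known, and 0.1% is used here only as an arithmetic example. If 0.1% of the reads at several places in replicate 1 belonged to mir-124, they would number 4816, or 84.5 times its counted reads. The same share for mir-9 would be 2.05 times its counted reads. The tables do not list these reads by gene, so the full level of either family was not measured, and the part of this row in the low counts was not tested. The family sums of 427 ± 64.3 CPM for mir-9 and 9.43 ± 0.24 CPM for mir-124 (SD, n = 2) are therefore sums of counted reads and not levels of the mature miRNAs.

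MiRNA genes beside the members are separate hairpins with counts of their own, and do not measure the members again. Mir3093 lies 341 bases from Mir9-1, also in an intron of Gm3764, and both of its arms matched 1 place. Its 87 reads in replicate 1 and 112 in replicate 2 gave 14.1 and 21.1 CPM, close to Mir9-1 in both, and it was also higher in replicate 2 (log2 ratio 0.57, adjusted exact binomial p = 0.013). Mir3078 lies 444 bases from Mir124a-1 and, like it, overlaps an exon of Mir124a-1hg. It stood at 19.5 and 18.3 CPM (120 and 97 reads), above Mir124a-1 in both libraries. Apart from Gm25641, no other gene among the 3 nearest to each member was a miRNA gene of the tables.

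In level, the genes most like a member by the distance of log2(CPM + 1) over the 2 libraries were as follows. Nearest to Mir9-3 were Mir338 (distance 0.10), a miRNA of the oligodendrocyte lineage, Mirlet7c-1 (0.15) and Mir485 (0.17). Nearest to Mir9-1 were Mir190b (0.18), Mir544 (0.30) and Mir3093 (0.31). Nearest to Mir124a-1 were Mir215, Mir1947 and Mir6928 (each 0.05), at 24 to 33 reads. A likeness over 2 libraries of 1 group describes level alone.

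Between the libraries, Mir9-3 and Mir9-1 passed a test that covers counting error only. Neither passed edgeR's exact test at a fixed biological coefficient of variation, BCV, of 0.2. That BCV was assumed, since 1 library on each side leaves the spread between pools unmeasured. The second test therefore cannot decide whether these differences exceed the spread between pools. Mir124a-1 and Mir124a-2 did not pass either test, and whether the mir-9 and mir-124 genes differ in their ratios was not tested. Of the 6 members, 4 had 10 or more reads in both libraries and were tested, by a two-sided exact binomial test of reads against library totals with Benjamini-Hochberg adjustment over 412 genes. Mir9-3 was 1.23-fold higher in replicate 2 (1.16 to 1.31), with an adjusted p of 6.7e-12. Mir9-1 was 1.5-fold higher in replicate 2 (1.15 to 1.96), with an adjusted p of 0.0062. The test called 47.6% of all genes tested, 18.4% as higher in replicate 2, so 2 of 4 members called is near the share of all genes. Both lie in the direction that was less frequent with totals unscaled. With totals scaled by TMM or RLE factors the directions were nearly even, at 91 genes higher in replicate 2 and 95 in replicate 1. The binomial test compares these 2 libraries and not conditions.

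Mir124a-1 stood at 0.877-fold in replicate 2 (0.50 to 1.52; adjusted p = 0.83 by the exact binomial test). Mir124a-2 stood at 1.16-fold (0.612 to 2.19; adjusted p = 0.80 by the same exact test). These intervals reach 1.5-fold in at least 1 direction, so a difference of the size seen at Mir9-1 was not detectable at 22 to 33 reads. Mir9-2 and Mir124a-3 were too low to be tested. Mir9-2 stood at 0.267-fold in replicate 2 (0.0488 to 0.972) and Mir124a-3 at 2.32-fold (0.332 to 25.6). With no filter on reads, their adjusted exact binomial p-values were 0.13 and 0.73.

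Differences of the size seen at the mir-9 genes occurred in other genes of like level. Among 118 other genes between 100 and 1000 CPM, 26 had a log2 ratio at least as large in size as the 0.30 of Mir9-3, and the median size was 0.16. Among 102 other genes between 10 and 100 CPM, 11 reached the 0.58 of Mir9-1, and the median size was 0.19. With spread between pools set at the assumed BCV of 0.2, 1.46% of genes and 0 of the 4 members passed. At an unadjusted p under 0.05 the members passing were also 0. Marker lists of other cells moved in both directions by the binomial test. That test called 18.4% of all genes tested as higher in replicate 2 and 29.1% as higher in replicate 1. Of the 10 neuronal markers 6 were higher in replicate 2 and 1 in replicate 1 (median log2 ratio 0.25). For the 3 of the oligodendrocyte lineage these counts were 2 and 1 (0.23), and for the 4 of blood 2 and 0 (0.20). They were 1 and 1 for the 3 of endothelium and vessel wall (0.006), and 0 and 1 for the 2 of choroid plexus and pigment epithelium (-0.07). For the 3 tested of hindbrain and cord they were 0 and 1 (0.04), and for the 3 tested of muscle 0 and 0 (-0.04). All 5 markers of epithelium were higher in replicate 1, with a median log2 ratio of -2.58 and a summed level of 663 CPM in replicate 1 against 116 in the other library. These 5 genes also passed at the fixed BCV of 0.2. The part of these cells in the ratios of the mir-9 genes was not tested.

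**Figure D4:**
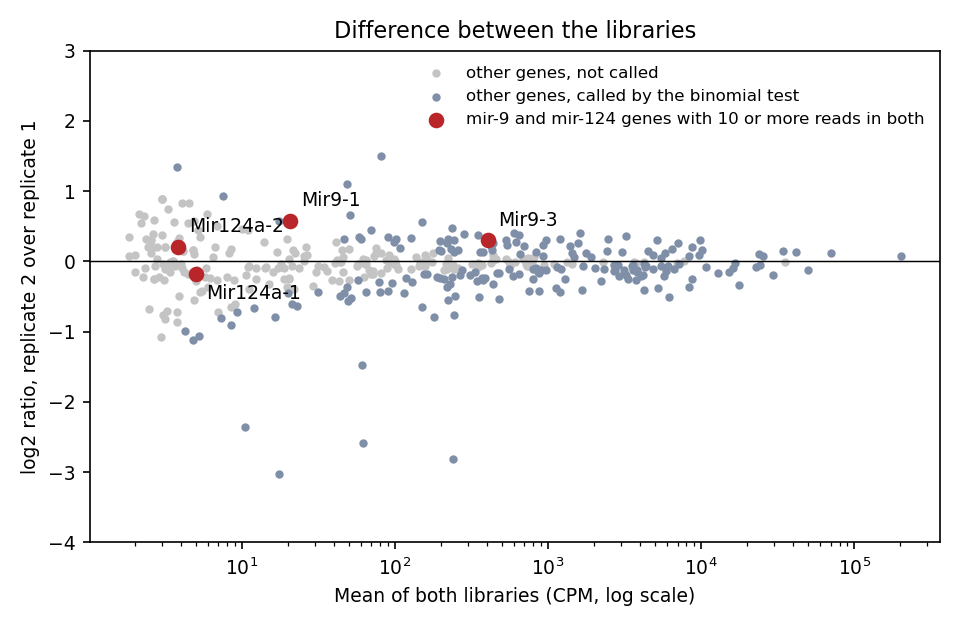
Log2 ratio of replicate 2 over replicate 1 (y axis) against mean CPM (x axis, log scale) for the 412 genes tested; red points are the 4 mir-9 and mir-124 genes with enough reads, blue-grey points other genes called by the exact binomial test, light grey points those not called. Mir9-3 (0.30) and Mir9-1 (0.58) lie above 0 among other genes of like level.

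Most other neural miRNAs were counted far above mir-124. These are counted reads, taken to leave out reads at several places, and the listed genes differ in how many arms they share. They are not levels of the mature miRNAs. Of a list of 30, every gene reached 10 reads in each library, with a median of 636 CPM against 106 CPM over all genes tested. Of these, 29 stood above Mir124a-1 and 19 above Mir9-3, and Mir184, at 4.84 ± 2.58 CPM (SD, n = 2), had a mean below that of Mir124a-1 by less than its SD. Mir137, a brain miRNA, had 15865 and 14350 CPM. Mir128-1 and Mir128-2, copies of another neuronal miRNA, stood at 2182 and 2729 CPM and at 1289 and 1507 CPM. Of the list, 13 genes were higher in replicate 2, 11 higher in replicate 1 and 6 did not pass the binomial test. Over all genes tested, 18.4% were called higher in replicate 2 and 29.1% higher in replicate 1. The median log2 ratio of the list was 0.02 against -0.05 over all genes tested. Mir128-1 (0.32), Mir128-2 (0.23) and Mir132 (0.32), a miRNA induced by neuronal activity, were among those higher in replicate 2. Mir137 (-0.14), Mir7-1 (-0.42), Mir7-2 (-0.33) and Mir135b (-0.16) were among those higher in replicate 1.

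Markers of neurons were present, with all 10 neuronal marker genes detected at a summed 22272 and 22204 CPM. Mir137 alone gave 15865 and 14350 CPM of these sums. No list marked midbrain itself, so the region on the label was not examined. Genes of other cells were present too. The highest were Mir219a-2 of the oligodendrocyte lineage at 923 CPM, Mir126a of endothelium at 23939, Mir451a of red blood cells at 151 and Mir429 of epithelium at 239. Mir204 of choroid plexus and pigment epithelium stood at 2230 CPM, whereas Mir211, the other gene of that list, stood at 16.9. Mir206 of muscle stood at 17.95 CPM. Mir10a of the Hox clusters, listed as a marker of hindbrain and cord, stood at 720. In bulk tissue, fewer cells of a type and less RNA per cell cannot be told apart.

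The sharing of both arms set the mir-9 copies beside few other genes. Only RefSeq arms found in their hairpin were used, which left 1 arm for some genes, and such a gene could fall in another group with both arms. Of the 859 table genes with RefSeq arms, counted with Mir9-1, 3 mir-9 copies and 45 others shared every arm used with another hairpin. Gm25641 was among the 45. The mir-124 genes had no matched RefSeq sequence and are not among the 859, so the sharing of their arms was not examined. Of those 45, 7 reached 10 reads in each library, and 2 stood above Mir9-3, Mir219a-2 and Mirlet7c-2 (644 CPM). Each of these was separated from its copies by 1 extra base, as Mir9-3 was. For Mir219a-2 only 1 arm was used, so its place in this group rests on that arm alone. Of 56 genes with 1 arm shared, 39 reached that number, and of 755 with every arm at 1 place, 304 did. Median levels were 0 CPM over the 45, 16.4 over the 56 and 0.783 over the 755. Mir128-1 and Mir128-2 each have 1 arm that is unique to the copy. These groups differ in many genes besides arm sharing, so the counts describe the tables and test nothing.

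**Figure D5:**
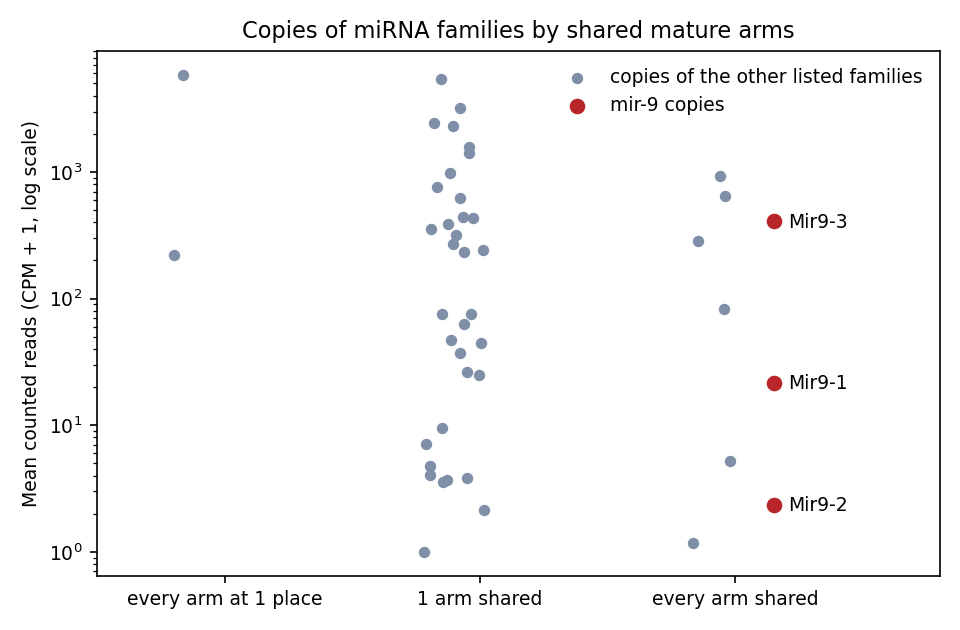
Mean CPM + 1 (y axis, log scale) of copies of the listed miRNA families. The groups (x axis) are every arm used at 1 place, 1 arm shared with another hairpin, and every arm used shared. Only arms found in their hairpin were used, which was 1 arm for Mirlet7a-2 (at 1 place), Mir129-1 and Mir219a-2 (both shared). Grey-blue points are copies of the other listed families and red points the mir-9 copies. The mir-9 copies spread from 1.34 to 405 CPM within the group in which every arm is shared.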

How the data were processed

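The deposited values are raw counts of reads per miRNA gene, on mm10 with GENCODE M4, per the listings the authors deposited. The aligner, counter and trimming are not named there or in the labels. The tables carry no column names, and from their layout columns were taken as reads on either, the sense and the opposite strand; rows for unmapped reads, reads at several places and reads in no gene were kept out of totals. Identifiers were matched to GENCODE M21 (same assembly): 1894 of 1973 matched. RefSeq sequences (GRCm38.p6) were matched by symbol, for Mir9-2, Mir9-3 and Gm25641 (3 of the 6 members) and for Mir9-1. Sense counts (opposite strand for Gm25641) were divided by summed sense counts to give CPM. Genes with 10 or more reads in both libraries were tested by an exact binomial test (scipy 1.17.1), which was tested on simulated data, with a threshold of 0.05. Log2 ratios add 0.5 reads. TMM and RLE factors and the exact test at a fixed BCV came from edgeR 4.0.16 (R 4.3.3). Windows were searched on both strands of M21 miRNA transcripts. With 1 library on each side no fit of the spread was possible.

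Members and lists were chosen with earlier results of these data known. The rule for names covered all members, genes sharing their seeds, the 3 genes nearest in level to Mir9-3, Mir9-1 and Mir124a-1, the 3 nearest in place to each member, copies of listed families where a comparison needs them, and the highest gene of each marker list. Of the nearest in place, host transcripts and miRNA genes are named. Mir132, Mir135b and Mir184 lie outside the rule and were chosen, like the examples from the neural list, after their values were seen. Mir10b, Mir196a-1, Mir196b and Mir211 are named besides, as the remaining genes of their marker lists. Labels call the libraries biological replicates but give both the same donor entry, so p-values measure only the difference between these libraries, which may be technical.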

Additional observations from a re-analysis of the deposited data

Results flagged for a closer look

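Reads on the strand opposite Mir124a-3 are in none of the printed levels other than those for either strand. They numbered 10 in replicate 2, above 3 counts, the upper limit when no read is seen, and 3 in replicate 1, against 4 and 2 reads on the sense strand. Mir124a-1, Mir124a-2 and Mir9-2 had 0 opposite-strand reads in both libraries, and Mir9-3 had 3 and 1. The nearest annotated gene on the opposite strand of Mir124a-3, Gm14342, lies 4380 bases away.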

How the results depend on the processing

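Scaling with TMM or RLE factors left the family sums within 1 SD. With CPM taken over all reads, a larger denominator, mir-124 stood at 4.21 and mir-9 at 190. With reads of either strand mir-124 stood at 10.4 CPM, and Mir124a-3 at 1.68 against 0.539, above Mir9-2 at 1.30. Leaving out 1 replicate gave 9.27 to 9.60 CPM for mir-124, 382 to 473 for mir-9, 94.6% to 95.1% for the share of Mir9-3 and 49.0% to 57.9% for that of Mir124a-1. Per 22-base window at 1 place, the share of Mir9-3 was 92.9%. The lowest genes rest on single libraries: Mir9-2 was 0.565 CPM without replicate 1 and Mir124a-3 0.325 without replicate 2. The 2 calls, at Mir9-3 and Mir9-1, held under each scaling and read filter. At a fixed BCV of 0.2 or 0.1, 0 members passed (0 and 1 at an unadjusted p under 0.05), and 6 and 9 genes in all did, against 196. That setting adds an assumed spread between pools to the test, which was not measured. Of the 196 calls, 38.8% were higher in replicate 2, and with TMM factors 48.9% of 186 were. At 50 or more reads, Mir124a-1 and Mir124a-2 could not be tested. A search of all M21 transcripts, added after seeing the data, also left 3 places for each miR-9 arm. The planned search of the genome was not run, as no genome sequence was used here, and the difference between libraries has no value with a replicate left out. No paired analysis was possible because there was 1 group.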
